A study of Mus musculus with 16 samples.

Results

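The 10 genes described here encode enzymes of prostaglandin and leukotriene synthesis and 1 helper protein: Ptgs1, Ptgs2, Ptgds, Ptges, Hpgds, Alox5, Alox5ap, Ltc4s, Alox12 and Alox15. They were picked by symbol, through the RefSeq identifiers of the table. The 10 genes have 24 transcript entries of the 130343 in the table, and 10 of the 59078 features that remained after counts were summed per gene. RNA was sequenced from wild-type male C57BL/6J mice that either ate normal rodent chow (lean) or a Western-type chow in which fat gave 42% of the energy, with 0.2% cholesterol (obese). Both diets began at 10 weeks of age and lasted 12 to 14 months, so the lean and obese mice were of like age. Inguinal subcutaneous adipose tissue (SAT), pooled from both flanks of a mouse, and mesenteric visceral adipose tissue (VAT) came from the same animals, with 4 mice on each diet. The result was 4 groups of 4 libraries, 16 in all, from poly(A)-selected RNA of whole tissue, from which visible vessels had been cut away.

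Prostaglandins and leukotrienes are short-lived lipid signals made from arachidonic acid that phospholipases free from membranes. The cyclooxygenases Ptgs1 and Ptgs2 turn it into prostaglandin H, from which terminal synthases make the separate prostaglandins, whereas 5-lipoxygenase, with the help of Alox5ap, opens the leukotriene route. In adipose tissue, prostaglandin E made by the fat cells restrains lipolysis, and leukotrienes come mainly from leukocytes.

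Total counts ranged from 4604460 to 11897722 in lean SAT, 10828758 to 16614407 in obese SAT, 1256082 to 15802634 in lean VAT and 2247737 to 11615347 in obese VAT. The shallowest libraries were replicate 1 of lean VAT and replicate 1 of obese VAT. Levels below are CPM, each count relative to its library total, scaled by TMM, which corrects the library size for composition. All 5 adipocyte markers (Adipoq, Plin1, Lep, Cidec and Fabp4) were detected, and their summed level was 40489 to 57664 CPM in lean SAT, 36449 to 52201 in obese SAT, 21504 to 34256 in lean VAT and 14938 to 25199 in obese VAT. The 6 mesothelial markers, which belong to the lining of the abdominal cavity, summed to 0.17 to 1.41 CPM in SAT libraries and to 253 to 622 CPM in VAT libraries, as the depot labels say. Of the pancreatic markers, Pnlip and Cela2a were at 0 in all SAT libraries and Pnlip, Cela2a and Cpa1 each reached at most 3.33 CPM in VAT, whereas Cela1 was at 33.3 to 209 CPM over all libraries. Intestinal markers summed to 10.2 to 39.8 CPM.

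A limit of the table bears on which of these genes could be read. Genes with a single entry held 86.8% of the counts on protein-coding genes, although 13534 of these genes have 2 or more entries and 8140 have 1. A share of counts weighs abundant genes most. The median level before TMM scaling was 0.163 CPM with 1 entry and 0.252 CPM with 2 or more. A mean of at least 1 CPM was reached by 41.8% and 32.5% of them. The endothelial gene Pecam1, with 4 entries, had 0 counts in all 16 libraries of a vascular tissue. How reads shared by several transcripts were counted was not stated, so a low count of a gene with several entries is not read here as low expression. Ptgs2 (chr1:149975194-149983978 in GRCm39, plus strand), Ptges (chr2:30779483-30820196, minus strand) and Alox5 (chr6:116387032-116438139, minus strand) each have 1 entry. The other 7 genes have 2 to 5 entries each, among them Alox5ap (chr5:149196003-149227762, plus strand) with 1 of 2 entries holding counts, and of the 24 entries of the 10 genes 11 had any count.

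**Figure D1:**
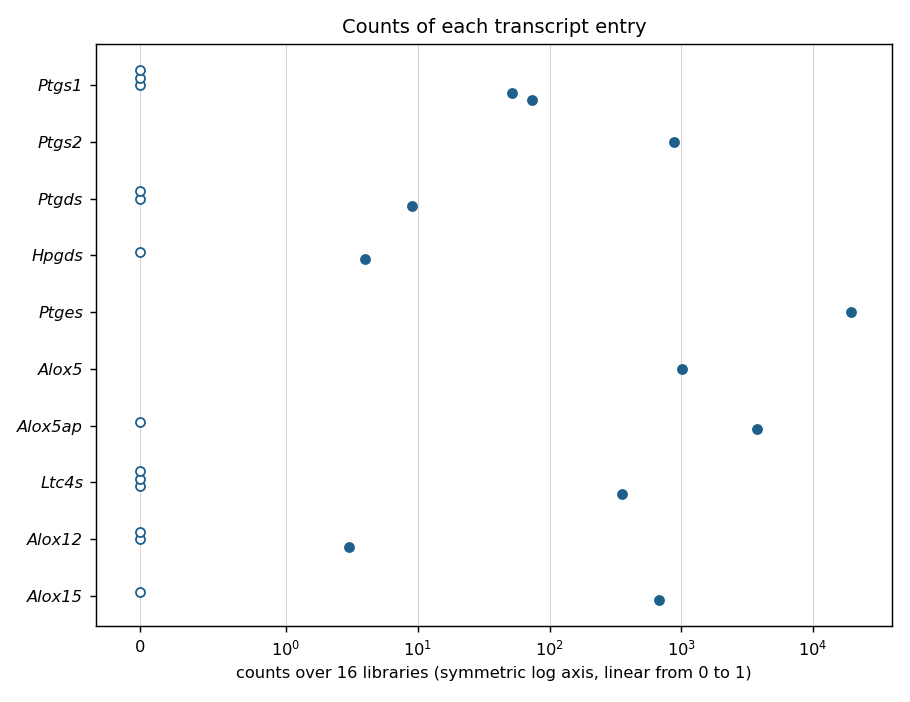
Counts of each transcript entry summed over 16 libraries, on a symmetric log axis, with 1 point per entry, filled where it had counts and open where it had 0. Ptges stands at 19422 counts from its single entry, whereas each gene with several entries has at least 1 entry at 0.

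Of the 10 genes, 7 passed the filter (CPM above 1 in at least 3 of 16 libraries) and entered the tests with 12185 features. Ptgds, Hpgds and Alox12 did not pass. Ptgds, the lipocalin-type synthase of prostaglandin D, had 9 counts, 2 in lean VAT and 7 in obese VAT, and 0 in the 8 SAT libraries. Hpgds, the glutathione-dependent synthase of the same product found in mast cells and other leukocytes, had 4 counts, of which 3 fell in 1 obese VAT library and 1 in an obese SAT library. Alox12, the platelet 12-lipoxygenase, had 3 counts, all in VAT. A count of 0 over the 4 libraries of a group allows a level of up to 0.087 CPM in lean SAT and 0.060 CPM in obese SAT, by a limit of 3 counts that covers counting error only. These 3 genes have 2 or 3 entries each, so the entry structure limits them beside the depth.

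Ptges and Alox5 are shown by their upstream sequence because they have 1 entry each and were both called higher in VAT than in SAT on each diet. The sequences are from RefSeq, placed by an exact and unique match to GRCm39, and are printed on the strand of the gene up to its RefSeq start (Alox5) or up to the first base of another annotated Ptges exon (Ptges). Capitals mark matches, on either strand, to the GC box GGGCGG and to GAGGAA, the core of sites of ETS factors such as PU.1 (TTCCTC on the other strand).
Ptges, 204 bases, chr2:30793356-30793559, minus strand: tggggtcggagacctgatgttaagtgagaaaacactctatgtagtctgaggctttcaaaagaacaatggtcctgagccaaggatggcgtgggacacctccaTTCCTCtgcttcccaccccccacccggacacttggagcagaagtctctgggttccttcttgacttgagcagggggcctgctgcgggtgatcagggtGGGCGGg
Alox5, 250 bases, chr6:116438140-116438389, minus strand: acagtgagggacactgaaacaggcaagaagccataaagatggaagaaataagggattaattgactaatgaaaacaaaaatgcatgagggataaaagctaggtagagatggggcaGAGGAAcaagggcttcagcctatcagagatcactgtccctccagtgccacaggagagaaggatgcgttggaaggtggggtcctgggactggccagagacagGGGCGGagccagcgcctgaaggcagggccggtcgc
In the GENCODE vM39 annotation the Ptges stretch lies within the longer gene model of Ptges, outside its exons, and under the opposite-strand gene Gm74745, and the Alox5 stretch lies in no annotated gene. In the full window of 250 bases before the start, the GC box matched 2 times at Ptges, 53 and 42 bases before the start, and 1 time at Alox5, 35 bases before it. GAGGAA matched 1 time at each gene, 149 bases before the start of Ptges and 136 bases before that of Alox5. Among 32851 promoter windows of the same length, 32.7% held the GC box and 23.3% held GAGGAA, so both matches are common. Other motifs searched on both strands were the AP-1 motif TGANTCA, the cyclic AMP response element TGACGTCA with its shorter form TGACG, the E-box CACGTG, the TATA box TATAAA and the C/EBP palindrome TTGCGCAA. None of these had a match in either window. For Ptgs2 the window lies inside an annotated Ptgs2 exon and is not printed. It held 1 GC box, 1 GAGGAA and 1 C/EBP palindrome, which 0.164% of all windows hold. Of the 10 genes, 8 were in the promoter table, which holds neither Alox5ap nor Alox15.

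The first question was how the long-term diet changed these genes within each depot. Ptges fell and Alox5ap rose in obese mice in both SAT and VAT, which is 2 of the 7 tested genes called in each depot (edgeR quasi-likelihood F-test, Benjamini-Hochberg adjusted p below 0.05). Over all 12185 features 11.6% were called in SAT (6.35% higher and 5.25% lower in obese mice) and 12.2% in VAT (6.89% higher and 5.28% lower). None of the 7 passed a log2 fold change of 1.5 beside the adjusted p, where the background was 2.60% in SAT and 3.22% in VAT. The other 5 genes were not called in either depot. Each diet comparison had its own 4 lean and 4 obese libraries, but the SAT and VAT libraries came from the same mice.

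Ptges, the inducible microsomal synthase that makes prostaglandin E from prostaglandin H, had the lowest adjusted p of the 7 tested genes in both depots. In SAT it was at 158, 130, 164 and 131 CPM in lean mice and at 77.7, 76.5, 57.2 and 60.3 CPM in obese mice. In VAT it was at 279, 173, 222 and 199 CPM in lean mice and at 114, 102, 95.3 and 93.0 CPM in obese mice. Every obese library lay below every lean library of its depot, as for 7.82% of all features in SAT and 6.26% in VAT, and the 4 groups did not overlap at any step of their order from obese SAT through obese VAT and lean SAT to lean VAT. The group means were 146 ± 18.1 and 67.9 ± 10.6 CPM in SAT and 218 ± 45.0 and 101 ± 9.30 CPM in VAT (lean and obese, SD, n = 4). This amounted to a log2 fold change in obese mice of -1.10 in SAT (SE 0.14, edgeR adjusted p = 3.0e-05) and -1.11 in VAT (SE 0.14, edgeR adjusted p = 2.6e-05). The difference of the diet response between the depots was 0.02 on the log2 scale, with a 95% interval from -0.29 to 0.32. Ptges remained called in all 17 alternative fits in each depot.

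Alox5ap, the membrane protein that hands arachidonic acid to 5-lipoxygenase, moved the other way. In SAT it was at 11.7, 14.9, 12.0 and 14.5 CPM in lean mice and at 21.1, 16.3, 21.9 and 19.9 CPM in obese mice. In VAT it was at 27.9, 21.9, 20.2 and 17.2 CPM in lean mice and at 25.9, 34.3, 38.0 and 53.2 CPM in obese mice. The SAT groups did not overlap, with obese above lean as for 9.52% of all features, whereas in VAT the lowest obese library lay below the highest lean library, and both of these were the shallow replicate 1. Its log2 fold change was 0.59 in SAT (SE 0.19, edgeR adjusted p = 0.046) and 0.86 in VAT (SE 0.19, edgeR adjusted p = 0.0043). The VAT call held without each of the 8 mice, with log2 fold changes of 0.67 to 1.01. The SAT call was at the threshold: it was lost without 7 of the 8 mice, any of the lean mice and obese replicates 1, 3 and 4, and held without obese replicate 2, while the log2 fold change stayed between 0.54 and 0.67.

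Alox5, the 5-lipoxygenase that makes leukotriene A from arachidonic acid, was not called in either depot. In SAT it was at 3.41, 3.79, 2.20 and 3.20 CPM in lean mice and at 5.87, 3.18, 6.16 and 6.13 CPM in obese mice. In VAT it was at 5.99, 8.75, 5.92 and 4.61 CPM in lean mice and at 8.75, 12.0, 6.34 and 11.03 CPM in obese mice. The groups overlapped in both depots, in SAT through obese replicate 2 alone. For Alox5 the log2 fold change was 0.78 in SAT (SE 0.28, edgeR adjusted p = 0.072) and 0.58 in VAT (SE 0.26, edgeR adjusted p = 0.18). Without obese replicate 2 the SAT value was 0.95 and passed the test (edgeR adjusted p = 0.034).

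Ptgs2, the inducible cyclooxygenase, showed no called difference between diets. In SAT it was at 1.08, 3.09, 1.34 and 4.69 CPM in lean mice and at 1.45, 1.17, 2.60 and 2.25 CPM in obese mice. In VAT it was at 10.6, 15.7, 6.78 and 13.6 CPM in lean mice and at 8.37, 5.32, 6.44 and 7.63 CPM in obese mice. The groups overlapped in both depots. The log2 fold change was -0.27 in SAT (95% interval -1.10 to 0.57, edgeR adjusted p = 0.74) and -0.81 in VAT (95% interval -1.50 to -0.12, edgeR adjusted p = 0.13). The VAT value passed the test in 2 of 17 alternative fits, with no filter on low counts (-0.83) and with the setting legacy=FALSE (-0.86).

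The remaining 3 tested genes had few counts and several entries each. Ptgs1, the constitutive cyclooxygenase, was at 0.191 to 2.66 CPM from 2 to 17 counts per library, and its 95% intervals of the diet change, -0.69 to 1.53 in SAT and -0.77 to 1.40 in VAT, leave changes of either sign within reach. Ltc4s, which joins glutathione to leukotriene A to make leukotriene C, was at 0.476 to 5.99 CPM, with log2 fold changes of 0.30 in SAT and -0.19 in VAT. Alox15, the 12/15-lipoxygenase of macrophages and eosinophils, was at 2.10 to 6.47 CPM, with log2 fold changes of 0.23 in SAT and -0.04 in VAT. The diet groups of these genes overlapped in both depots.

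**Figure D2:**
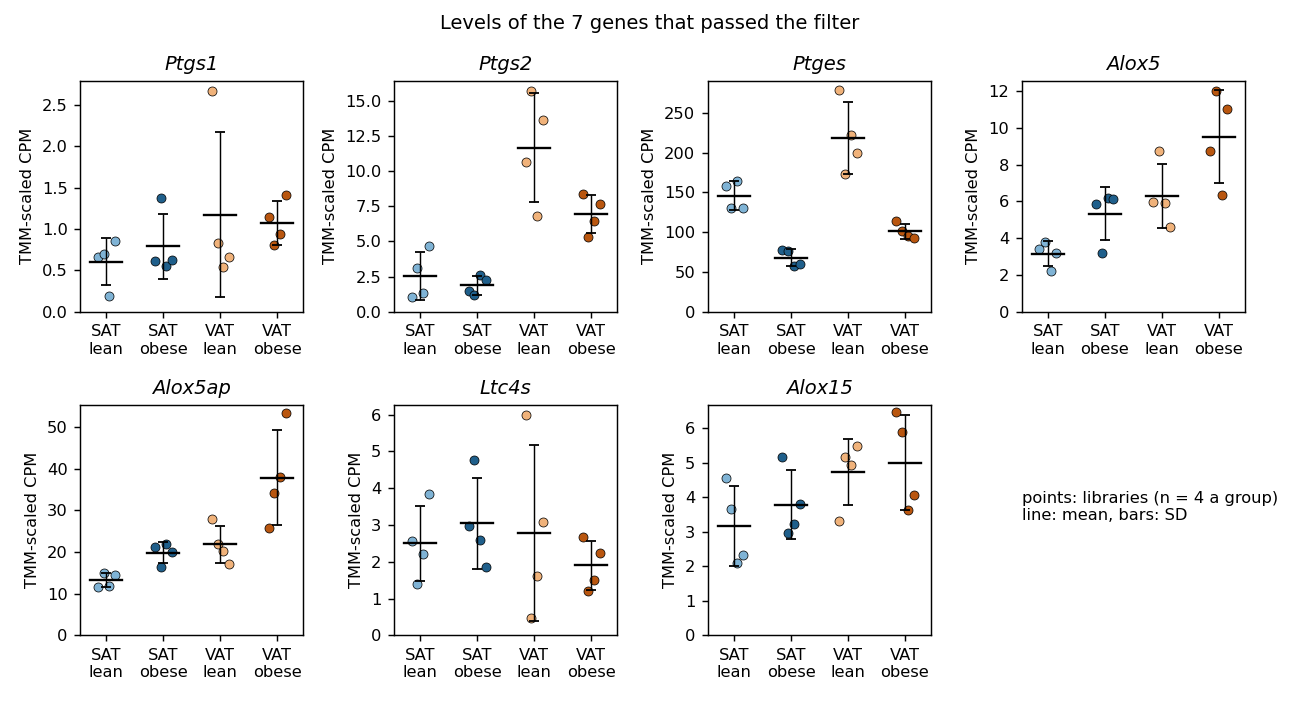
TMM-scaled CPM of the 7 tested genes by depot and diet, with a point per library (n = 4 a group), a line at the mean and bars of 1 SD. Ptges falls from 146 to 67.9 CPM in SAT and from 218 to 101 CPM in VAT with the diet, whereas Alox5ap is highest in obese VAT at 37.8 CPM.

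Leukocyte markers moved in the same comparisons. In bulk tissue, fewer cells of a type and less RNA per cell cannot be told apart. Of 6 macrophage markers 5 were tested, and 4 of them rose with the diet in SAT and 4 in VAT. Their summed level was 1236 to 1697 CPM in lean SAT, 1919 to 2835 in obese SAT, 2147 to 2843 in lean VAT and 4362 to 6565 in obese VAT. Adgre1, with 4 entries, had 2 to 5 counts a group and was at 0 in at least 1 library of each group. The groups of this sum did not overlap between diets in either depot. Of the 4 tested markers of lipid-associated macrophages, 1 rose in SAT and 4 in VAT, and the summed level of the 5 listed was 132 to 185 CPM in lean SAT, 231 to 296 in obese SAT, 132 to 196 in lean VAT and 429 to 1576 in obese VAT. The 1 tested neutrophil marker, S100a8, was called higher with the diet in VAT (log2 fold change 1.04) and not in SAT (0.17), and the sum of the 4 listed was 7.87 to 22.2 CPM in lean SAT, 14.9 to 18.1 in obese SAT, 2.05 to 6.03 in lean VAT and 5.56 to 9.51 in obese VAT, with Ly6g at 0 in every library. Of 3 T cell markers 2 rose in VAT and 0 were called in SAT, and of 3 B cell markers 1 rose in VAT and 0 were called in SAT. The part of these cells in the levels of Alox5ap and Alox5 was not tested. Of 5 adipocyte markers, 0 were called in SAT and 2 were lower in VAT of obese mice. The median over the 5 was -0.11 in SAT and -0.61 in VAT on the log2 scale. The part of fat cells in the level of Ptges was not tested. Of the 5 tested mast cell markers, 0 were called in SAT and 3 rose in VAT, beside a Ltc4s value that was not called, and the sum of the 7 listed was 46.9 to 72.3 CPM in lean SAT, 64.0 to 108 in obese SAT, 16.6 to 31.0 in lean VAT and 24.0 to 101 in obese VAT. The 4 eosinophil markers were too low to test, with a summed level of 0 to 1.16 CPM and Epx at 0 in every library.

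**Figure D3:**
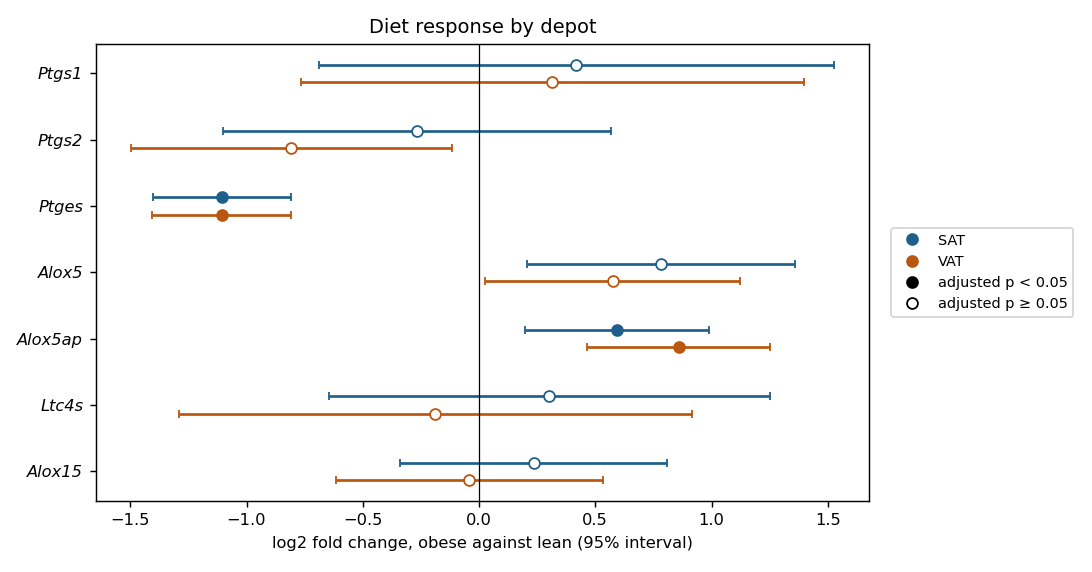
Log2 fold change of the 7 tested genes in obese against lean mice, with 95% intervals, SAT in blue and VAT in orange, filled where the adjusted p was below 0.05. The Ptges intervals lie below 0 in both depots, at -1.10 and -1.11, and the Alox5ap intervals above it, at 0.59 and 0.86.

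The second question was how the depots differed within a mouse. Ptgs2, Ptges, Alox5 and Alox5ap were higher in VAT than in SAT on both diets, which is 4 of 7 tested genes called in lean mice and 4 of 7 in obese mice (edgeR with the mouse as a block, adjusted p below 0.05). The background was 15.9% of all features in lean mice and 31.3% in obese mice, or 8.67% and 16.3% for features higher in VAT and 7.22% and 15.1% for features lower in VAT. For these 4 genes the VAT libraries did not overlap the SAT libraries on either diet, and VAT was higher in 4 of 4 lean mice and in 4 of 4 obese mice. Over all features the VAT libraries lay above the SAT libraries without overlap in 9.20% in lean mice and 15% in obese mice. The depot comparisons used the same 16 libraries as the diet comparisons and are not independent of them.

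Ptgs2 differed the most of the tested genes. The per-mouse levels given above amount to means of 2.55 ± 1.68 CPM in SAT and 11.7 ± 3.86 CPM in VAT of lean mice, and of 1.87 ± 0.67 and 6.94 ± 1.34 CPM in obese mice (SD, n = 4). The log2 fold change of VAT against SAT was 2.28 in lean mice (SE 0.28, edgeR adjusted p = 6.2e-06) and 1.87 in obese mice (SE 0.28, edgeR adjusted p = 2.7e-05), or 4.87-fold and 3.65-fold. It was the single gene of the 7 to pass a log2 fold change of 1.5 beside the adjusted p, against a background of 5.54% in lean and 9.39% in obese mice. It stayed called in all 15 alternative fits on each diet.

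The log2 fold change of Ptges in VAT against SAT was 0.57 in lean mice (SE 0.10, edgeR adjusted p = 5.9e-04) and 0.58 in obese mice (SE 0.11, edgeR adjusted p = 2.6e-04). Alox5ap was 1.61-fold higher in VAT of lean mice (edgeR adjusted p = 0.016) and 1.89-fold higher in obese mice (edgeR adjusted p = 4.3e-04). Alox5 was 2.06-fold higher in lean mice (edgeR adjusted p = 0.019) and 1.78-fold higher in obese mice (edgeR adjusted p = 0.017). In lean mice the Alox5 call was lost without lean replicate 2 (0.95) or 3 (0.88), and the Alox5ap call without lean replicate 1 (0.53) or 3 (0.65). In obese mice the Alox5 call was lost without obese replicate 2 (0.52) or 4 (0.85). Alox15, Ptgs1 and Ltc4s were not called between depots, with log2 fold changes of 0.71, 0.76 and -0.24 in lean mice and of 0.39, 0.47 and -0.70 in obese mice.

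Other cell types differed between the depots as well. All 6 mesothelial markers were called higher in VAT on each diet, at the levels given above, beside 8.67% and 16.3% of all features. They entered the tests through their VAT libraries, so these calls restate their levels. Msln and Wt1 were at 0 in all SAT libraries. Macrophage markers were called higher in VAT for 3 of 5 in lean mice and 5 of 5 in obese mice. For lipid-associated macrophages 0 of 4 tested markers were called in lean mice and 4 of 4 were higher in obese mice. B cell markers summed to 3.06 to 7.19 CPM in SAT and to 28.4 to 289 CPM in VAT, and T cell markers to 2.33 to 9.54 CPM in SAT and to 9.37 to 45.2 CPM in VAT. Other markers were lower in VAT: 2 of 5 adipocyte markers in lean mice and 4 of 5 in obese mice, 3 of 5 mast cell markers in lean mice and 0 of 5 in obese mice, and the 1 tested neutrophil marker on each diet. The median log2 fold change over the 5 adipocyte markers was -0.01 in lean mice and -0.71 in obese mice. Of 5 fibroblast and progenitor markers 3 were lower and 1 was higher in VAT on each diet, with sums of 4080 to 7017 CPM in lean SAT, 3799 to 4339 in obese SAT, 1683 to 2732 in lean VAT and 2450 to 2731 in obese VAT. The part of these cell types in the depot differences of Ptgs2, Ptges, Alox5 and Alox5ap was not tested.

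**Figure D4:**
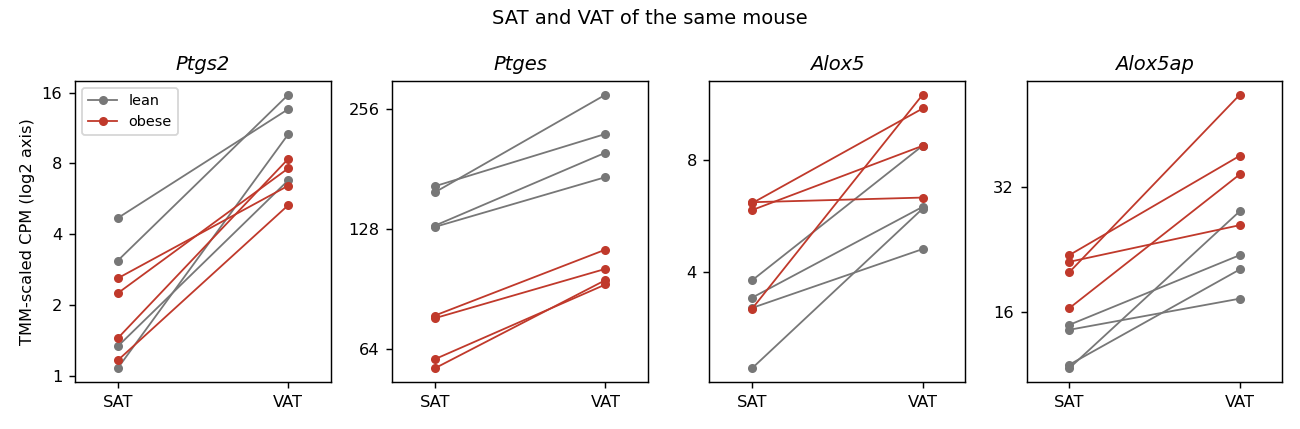
TMM-scaled CPM on log2 axes of Ptgs2, Ptges, Alox5 and Alox5ap in SAT and VAT, with a line for each mouse (grey lean, red obese). Every line rises from SAT to VAT, and for Ptges the 4 obese mice lie below the 4 lean mice in both depots.

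The third question was whether the diet response differed between the depots. Of the 7 tested genes 0 were called, against a background of 2.47%. At an unadjusted p below 0.05 the edgeR count was also 0 (lowest unadjusted p = 0.31), as was the DESeq2 count after adjustment. The interval was narrowest for Ptges, given above. It ran from -0.30 to 0.77 for Alox5ap, from -1.02 to 0.60 for Alox5 and from -1.25 to 0.42 for Ptgs2. These intervals include differences of either sign.

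Levels can be set side by side between genes only per length and only for the single-entry genes. Per kilobase of the canonical GENCODE transcript, the mean level in lean SAT was 39.5 CPM for Ptges, 1.11 for Alox5 and 0.54 for Ptgs2. In lean VAT it was 59.1 for Ptges, 2.46 for Ptgs2 and 2.23 for Alox5. In obese VAT it was 27.3 for Ptges, 3.37 for Alox5 and 1.46 for Ptgs2. Ptges thus stood above the other 2 genes in each of these groups, whereas the order of Alox5 and Ptgs2 was not the same in all of them. All 3 genes share exon bases with an annotated gene on the other strand (476 of 5123 exon bases of Ptgs2 with Ptgs2os, 317 of 4405 of Ptges with Gm74745 and 449 of 4112 of Alox5 with Gm67658). The library kit keeps strand, but the strand setting of the counting was not stated.

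The wider pathway was read from 57 other genes, of which 56 were in the table and 37 were tested. In SAT 8 were called with the diet, 7 higher and 1 lower, or 21.6% against 11.6% of all features (6.35% higher and 5.25% lower). In VAT 7 were called, 5 higher and 2 lower, or 18.9% against 12.2% of all features (6.89% higher and 5.28% lower). The median log2 fold change over the 37 was 0.09 in SAT and 0.19 in VAT, against 0.00 and -0.02 over all features. Between depots 10 were called in lean mice, 4 higher and 6 lower in VAT, or 27.03% against 15.9% of all features. In obese mice 19 were called, 9 higher and 10 lower, or 51.4% against 31.3%.

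Upstream of the cyclooxygenases, 1 of 6 tested genes of arachidonate release was called in each depot, the secreted phospholipase Pla2g2e in both. Pla2g2e was at 5.92 ± 2.58 CPM in lean and 17.0 ± 6.12 CPM in obese SAT, and at 4.58 ± 1.60 and 14.1 ± 1.57 CPM in VAT. Its log2 fold change was 1.54 in SAT (edgeR adjusted p = 8.7e-04) and 1.55 in VAT (edgeR adjusted p = 0.0013), and all 17 alternative fits called it in each depot. Of 7 tested other prostanoid synthases, 0 were called in SAT and 1 in VAT: Ptges2, a second synthase of prostaglandin E, fell from 38.0 ± 8.06 to 26.3 ± 1.37 CPM (log2 fold change -0.49, edgeR adjusted p = 0.025). Its call was lost without any of 7 of the 8 mice, the exception being lean replicate 4, with values of -0.53 to -0.37.

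Among 6 tested genes of the leukotriene and lipoxygenase routes beside the 10, Mgst3, a microsomal glutathione transferase that can make leukotriene C, fell in SAT from 474 ± 83.1 to 313 ± 34.7 CPM (log2 fold change -0.60, edgeR adjusted p = 0.011), a call lost without lean replicate 3 (-0.47). Dpep2, a dipeptidase that turns leukotriene D into leukotriene E, rose in VAT from 0.79 ± 0.45 to 2.67 ± 1.04 CPM (1.97, edgeR adjusted p = 0.010), a call lost without lean replicate 2 (1.70) and for its largest single entry (1.92). Of 7 tested genes of export, uptake and breakdown, Hpgd, the dehydrogenase that inactivates prostaglandins, rose in SAT from 256 ± 41.9 to 399 ± 108 CPM (0.64, edgeR adjusted p = 0.023), a call lost without lean replicates 1, 2 or 4 or obese replicates 2 or 4 (0.45 to 0.63). Ptgr2, a prostaglandin reductase, fell in VAT from 2.34 ± 0.69 to 0.89 ± 0.30 CPM (-1.46, edgeR adjusted p = 0.0064), a call lost for its largest single entry (-1.20).

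Of 6 tested prostanoid receptors, 2 rose in SAT and 2 in VAT, against 6.35% and 6.89% of all features called higher. The receptors tested were Ptger1 to Ptger4, which bind prostaglandin E, with Ptgfr and Ptgir. Ptger3, the receptor subtype that lowers cyclic AMP in fat cells, rose in SAT from 33.5 ± 10.3 to 85.1 ± 6.41 CPM (1.36, edgeR adjusted p = 5.4e-05) and was at 46.7 ± 12.4 and 57.4 ± 7.32 CPM in VAT (0.27, edgeR adjusted p = 0.40). Ptger2, which raises cyclic AMP, rose in VAT from 4.23 ± 1.95 to 12.5 ± 3.06 CPM (1.36, edgeR adjusted p = 6.9e-04). In SAT it was at 4.97 ± 0.87 and 7.51 ± 0.78 CPM (0.60, edgeR adjusted p = 0.10). Its diet response was not called different between the depots (0.86, edgeR adjusted p = 0.18). Ptger1 rose in VAT (0.64, edgeR adjusted p = 0.038) and Ptger4 in SAT (1.47, edgeR adjusted p = 0.049), and both calls were lost without any of 6 of the 8 mice. Ptger1 held without lean replicate 1 or obese replicate 3, and Ptger4 without lean replicate 3 or obese replicate 4.

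Of 5 tested leukotriene and lipoxin receptors, 3 rose in SAT and 1 in VAT, beside the same shares of all features. Cysltr1, a receptor of the cysteinyl leukotrienes, rose in SAT from 0.35 ± 0.34 to 1.39 ± 0.36 CPM (2.28, edgeR adjusted p = 0.011), from 9 counts in the 4 lean libraries, and the log2 fold change was 2.93 without lean replicate 4. Fpr2, the lipoxin and formyl peptide receptor, rose in SAT (2.69, edgeR adjusted p = 0.0074) from 8 counts in the lean libraries, with overlapping groups and a value of 4.03 without lean replicate 3, and in VAT (2.03, edgeR adjusted p = 0.011) from 0.57 ± 0.46 to 3.09 ± 0.83 CPM, a VAT call lost without obese replicate 4 (1.86). Cmklr1, the receptor of chemerin and resolvin E, rose in SAT from 6.80 ± 2.12 to 16.2 ± 1.99 CPM (1.23, edgeR adjusted p = 3.8e-04). Unlike Fpr2, Cysltr1 (0.68, edgeR adjusted p = 0.43) and Cmklr1 (0.16, edgeR adjusted p = 0.69) were not called in VAT. All 3 receptors are also expressed by macrophages, whose markers rose in the same comparisons. For the 5 tested macrophage markers the middle value of the diet change was 1.22 in VAT against 0.70 in SAT (log2 scale). The part of macrophages in the levels of these receptors was not tested.

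The diet response differed between the depots for 3 of the 37 pathway genes (8.11%), each with a lower response in VAT, where 1.62% of all features were called. The difference was -1.10 for Ptger3 (edgeR adjusted p = 0.0037), -0.78 for Hpgd (edgeR adjusted p = 0.021) and -1.11 for Cmklr1 (edgeR adjusted p = 0.047) on the log2 scale. The Ptger3 call was made in all 15 alternative fits, that of Hpgd in 9 and that of Cmklr1 in 5. Without single mice the Hpgd call was lost for lean replicates 2 and 4 and obese replicates 1, 2 and 4 (-0.78 to -0.63), and the Cmklr1 call for lean replicates 2, 3 and 4 and all 4 obese replicates (-1.14 to -0.94). In the same comparison 1 of 5 adipocyte and 1 of 3 tested endothelial markers were called lower. Of the lipid-associated macrophage markers 1 of 4 tested was called higher, as was 1 of 5 fibroblast and progenitor markers. The part of these cell types was not tested.

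**Figure D5:**
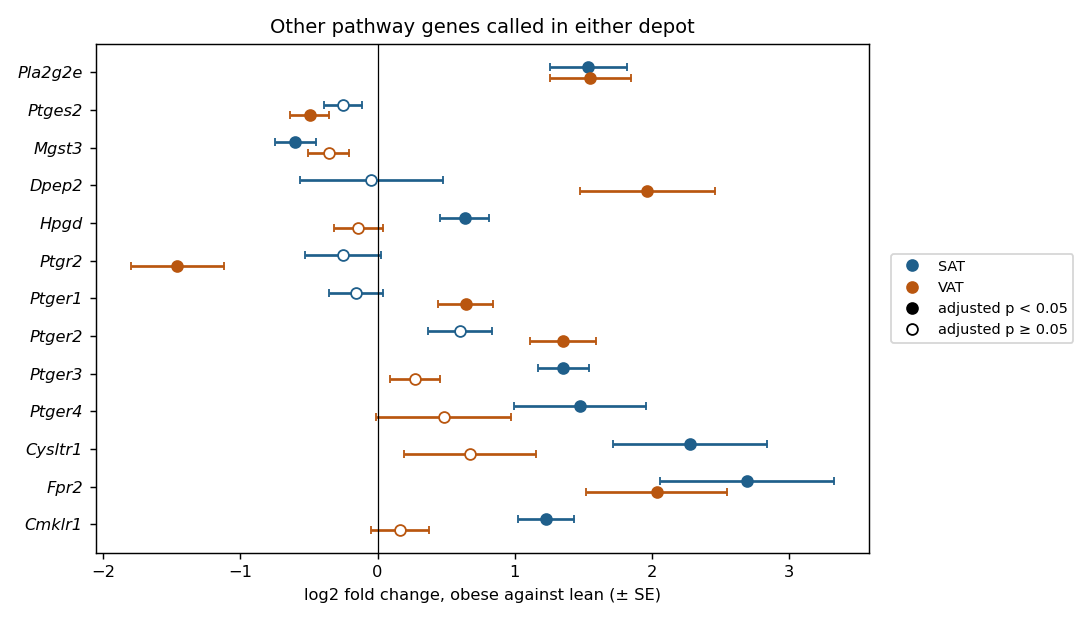
Log2 fold change with SE, obese against lean, of the 13 other pathway genes called in either depot, SAT in blue and VAT in orange, filled where the adjusted p was below 0.05. Pla2g2e and Fpr2 are filled on the right in both depots, at 1.54 and 1.55 and at 2.69 and 2.03, whereas Ptger3, Hpgd and Cmklr1 are filled in SAT only.

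Genes whose log2 CPM followed a gene most closely over the 16 libraries were Pygl (Pearson r 0.94), Cldn22 (0.93) and Tmem88b (0.93) for Ptges, and Plek (0.94), Csf1r (0.94) and Bst1 (0.94) for Alox5ap. For Alox5 they were Cd37 (0.92), Dcaf7 (0.92) and Tmem176b (0.91), and for Ptgs2 Capn6 (0.93), Zfp36l1 (0.93) and Rhou (0.92). For Alox15 they were Pcdhgb4 (0.82), 4930579G18Rik (0.77) and Gm36681 (0.76). Csf1r, the receptor of a macrophage growth factor, is in the macrophage list used above. These values describe 16 libraries that share 2 depots, 2 diets and 8 mice, and they were picked as the highest of 5210 or 5211 genes compared.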

How the data were processed

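The authors trimmed paired-end reads, aligned them to GRCm39 with HISAT2 2.2.0 and counted them with HTSeq 0.13.5 per RefSeq transcript (versions from the submitters' processing notes). The deposited table holds 16 columns of raw counts and 16 of CPM. The deposited CPM equal the counts scaled to the column total to within 4.9e-10 and were not used further. Symbols were matched by RefSeq identifier for 82.0% of entries, and counts were summed per symbol. Diets were compared within a depot with edgeR 4.0.16 (TMM, quasi-likelihood F-test, legacy=TRUE, CPM above 1 in at least 3 of 16 libraries) on all 16 libraries, with Benjamini-Hochberg adjustment over 12185 features. Depots, and the difference of the diet response between them, were tested with the mouse as a block. SAT and VAT were paired because they came from 1 mouse: deviations from the group mean correlated at -0.0014 to 0.18 (median 0.076) in the 8 same-mouse pairs and at -0.15 to 0.12 (median -0.037) in 24 pairs of different mice.

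The genes and lists were chosen with earlier results of these data known. Named genes were the 10, every pathway gene called with diet in either depot, and, for each of the 10 with a mean CPM of at least 1, the 3 genes of highest Pearson r. Those of Ltc4s are not reported here. Alternatives were RLE size factors, no filter, filterByExpr, DESeq2 1.42.0, legacy=FALSE, 1 depot alone, entries not summed, a block by replicate number, no mouse block, limma 3.58.1 voom and each mouse left out. The fits were tested on simulated data in which 200 of 12185 features were changed. No 2 libraries were copies: the lowest chi-square per degree of freedom of a pair in a group was 10.5.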

Additional observations from a re-analysis of the deposited data

Results flagged for a closer look

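In obese SAT, replicate 2 stood apart from the other 3 libraries for 2 genes by Dixon's test: it was the highest for Ptgs1, at 1.38 CPM, and the lowest for Alox5, at 3.18 CPM. The Ptgs1 value rests on 13 counts. Over the 28 groups checked, chance alone would place about 1 in 20 apart. No difference of the diet response between depots was called among the 7 tested genes.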

How the results depend on the processing

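Ptges (both diet and both depot comparisons), Alox5ap with diet in VAT, Alox5ap between depots in obese mice and Ptgs2 between depots on both diets stayed called in every alternative run. The number of the 10 genes called in SAT with diet, 2 as reported, was 1 with filterByExpr, 1 with the replicate number as a block and 1 to 3 without single mice, through Alox5ap and Alox5. Replicate numbers of lean and obese mice name different animals, so that block does not pair samples of the same mouse. Deviations of lean and obese libraries with the same number correlated at -0.093 to 0.052 in SAT and at 0.083 to 0.17 in VAT. What VAT libraries with the same number share was not tested. Without single mice, the count between depots in lean mice was 2 to 4, pathway genes called with diet in VAT were 4 to 7 (4 without lean replicate 2 and 4 without obese replicate 4), those between depots in obese mice 12 to 21 (12 without obese replicate 4) and those with a different diet response 1 to 3. Without the replicate block for the mouse, the last count was 1. No call changed sign. Over all features the alternatives called 927 to 1715 in SAT and 846 to 1835 in VAT with diet, 1276 to 2060 and 2490 to 4463 between depots, and 134 to 453 for the difference. The causes were not tested. Ptgs1, Ltc4s and Alox15, with at most 87 counts a library, and the 3 untested genes are limited by depth and by their several entries.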

Other observations

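Ptgis, the synthase of prostacyclin, which vessel walls and mesothelium make, had a lower CPM in SAT than in VAT. It was not called with diet and was chosen after its values were seen. It was at 0.083 to 0.21 CPM in lean SAT (5 counts in 4 libraries), 0.078 to 0.53 CPM in obese SAT, 1.19 to 7.98 CPM in lean VAT and 1.74 to 9.51 CPM in obese VAT, and the depots did not overlap on either diet. The log2 fold change of VAT against SAT was 4.37 in lean mice (SE 0.65, edgeR adjusted p = 6.0e-05) and 3.80 in obese mice (SE 0.53, edgeR adjusted p = 1.3e-05). Ptgis passed the filter through its VAT libraries, with no SAT library above 0.53 CPM. As it was chosen by these values, the depot tests and the lack of overlap are no independent support. Without lean replicate 1 the lean value was 3.41, and without obese replicate 2 the obese value was 4.51. Ptgis has 2 entries, both with counts, so its few counts in SAT are not read as low expression. Mesothelial markers were near 0 in SAT and present in VAT, as given above. Of 3 tested endothelial markers, at the sums given above, 1 was called higher in VAT of lean mice and 0 in obese mice. Of 2 tested smooth muscle markers, 0 were called between depots on either diet. The part of these cells in the Ptgis level was not tested.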
